A study of Mus musculus with 31 samples.

Results

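Small nucleolar RNAs (snoRNAs) were followed in mouse embryonic stem cells with and without Dicer, the enzyme that cuts microRNA precursors, in newly made and in older RNA. The set held every GENCODE M21 gene with a symbol starting Snord (box C/D class) or Snora (box H/ACA class) whose mean level over the 16 metabolic-labelling libraries was at least 1 TPM, a level scaled to transcript length and to the library. It held 71 of the 141 such genes, 39 of 99 box C/D genes and 32 of 42 box H/ACA genes, among 21821 features of the table at or above the same level. The 71 genes carried 69 symbols, since Snord80 and Snora43 each had 2 overlapping gene models that share reads and cannot be separated. Just inside the limit stood Snord1b (1.15 TPM), Snord111 (1.17 TPM), Snora57 (1.27 TPM) and Snora19 (1.52 TPM), and just outside it Snord1c (0.951 TPM), Snord33 (0.880 TPM), Snora62 (0.652 TPM) and Snora5c (0.571 TPM).

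snoRNAs are short, stable RNAs of the nucleolus that work inside ribonucleoproteins. Box C/D snoRNAs mostly guide the methylation of ribose in ribosomal RNA by the enzyme fibrillarin, box H/ACA snoRNAs guide the isomerization of uridine to pseudouridine by dyskerin, and a few members of each class instead help cut and fold the ribosomal RNA precursor. In mammals most are released from introns of protein-coding or noncoding host genes after splicing, so a host transcript yields both an mRNA or noncoding RNA and a snoRNA.

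The cells were the XY line DTCM23/49, which carries a conditional Dicer mutation, and each 4-thiouridine (4sU) library came from 1 of 4 cultures, 2 wild-type (WT) and 2 Dicer depleted. Depletion was induced with 800 nM 4-hydroxytamoxifen (4-OHT), the stated length of treatment is 8 days for both genotypes, and 200 µM 4sU was given to all cultures for 10 or 15 minutes before RNA was split into a labelled (newly made) and a preexisting (unlabelled) fraction. The sample titles call the preexisting fraction total. A further 15 libraries of small RNA, 3 for each of days 0, 4, 8, 10 and 12 of 4-OHT, all carried the label Dicer depleted, with day 0 untreated. Because p-values rest on 2 cultures a group, they measure only the spread between these cultures, which may be partly technical.

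All 9 stem cell markers examined were at 10.5 to 653 TPM, while none of 7 fibroblast and none of 4 primitive endoderm markers reached 1 TPM. Dicer1, the targeted gene, was at 1.20 to 3.37 TPM in the 4 depleted and 13.4 to 17.9 TPM in the 4 WT preexisting libraries, a log2 difference of -2.29 (limma, adjusted p = 0.0347). Among labelled libraries the depleted ones held 2.35 to 3.52 TPM and the WT ones 7.34 to 9.65 TPM (log2 difference -1.26, adjusted p = 0.143). The groups did not overlap in either fraction. Read depth cannot be recovered for the 4sU libraries, and values below therefore carry no counting interval. In these bulk samples, fewer cells making an RNA and less RNA per cell cannot be told apart.

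The sequences of members that carry the results below are printed from the mm10 genome (GRCm38) at the GENCODE M21 positions, 5′ to 3′, as DNA letters. Capitals mark the C box letters TGATGA within the first 25 bases and the D box letters CTGA within the last 25 bases of a box C/D member, and the letters ACA that lie 2 to 4 bases from the 3′ end of a box H/ACA member. Snord14d (chr9:40803995-40804080, + strand) and Snord14c (chr9:40803583-40803668, + strand) are shown because they differ at 2 of 86 bases (97.7% identity) and had among the largest differences between fractions.
Snord14d: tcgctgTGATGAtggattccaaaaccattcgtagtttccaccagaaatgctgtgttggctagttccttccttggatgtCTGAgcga
Snord14c: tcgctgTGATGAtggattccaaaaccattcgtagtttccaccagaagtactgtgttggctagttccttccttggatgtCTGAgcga
Snord22 (chr19:8725866-8725991, + strand) and Snord17 (chr2:144265979-144266216, - strand) are shown because they were the only box C/D members above 0 in all 16 libraries.
Snord22: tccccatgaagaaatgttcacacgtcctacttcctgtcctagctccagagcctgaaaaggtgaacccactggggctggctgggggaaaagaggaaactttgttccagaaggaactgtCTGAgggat
Snord17: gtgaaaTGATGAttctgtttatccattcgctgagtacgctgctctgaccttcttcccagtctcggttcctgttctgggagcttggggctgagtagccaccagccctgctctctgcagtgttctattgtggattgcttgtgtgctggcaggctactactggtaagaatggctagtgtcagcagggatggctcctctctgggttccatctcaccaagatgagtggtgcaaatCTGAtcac
Snora73a (chr4:132352775-132352979, - strand), the most abundant box H/ACA member, differs from Snora73b at 7 of 205 bases (96.6% identity). Snora33 (chr10:23785347-23785475, - strand), Snora21 (chr11:97781639-97781775, - strand) and Snora81 (chr16:23110756-23110933, + strand) were well separated between the fractions.
Snora73a: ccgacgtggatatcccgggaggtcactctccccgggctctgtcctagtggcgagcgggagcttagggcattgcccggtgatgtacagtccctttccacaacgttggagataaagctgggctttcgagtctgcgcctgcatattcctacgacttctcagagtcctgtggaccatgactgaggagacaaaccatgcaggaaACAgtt
Snora33: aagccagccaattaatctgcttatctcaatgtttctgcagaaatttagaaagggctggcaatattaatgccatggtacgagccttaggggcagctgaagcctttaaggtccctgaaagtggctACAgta
Snora21: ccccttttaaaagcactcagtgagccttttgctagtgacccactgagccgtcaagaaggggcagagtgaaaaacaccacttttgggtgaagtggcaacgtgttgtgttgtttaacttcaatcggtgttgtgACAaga
Snora81: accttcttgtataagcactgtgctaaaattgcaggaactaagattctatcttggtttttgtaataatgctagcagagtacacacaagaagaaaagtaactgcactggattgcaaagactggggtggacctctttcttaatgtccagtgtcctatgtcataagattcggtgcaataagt

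The symbols and the sequences were largely in step. On the transcribed strand, 28 of the 39 box C/D members (71.8%) held both TGATGA and CTGA in these windows, against 0 of 32 box H/ACA members and 7 of 6409 other annotated transcripts of 70 to 250 bases (0.109%). The ACA letters stood near the 3′ end of 30 of 32 box H/ACA members (93.8%), 1 of 39 box C/D members (Snord83b) and 408 of the other transcripts (6.37%). The D box letters alone were in 38 of 39 box C/D members, all but Snord53, and in 6 box H/ACA members. Snord22 held CTGA and not TGATGA, and Snora81 and Snora44 held no ACA in the window, which says only that these letters are not there.

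Box C/D members were short and often listed at 0, and box H/ACA members were longer and mostly detected. Box C/D members had a median length of 90 bases (75 to 238) and 31 of 39 were under 100 bases, while box H/ACA members had a median length of 132.5 bases (121 to 205). Mean levels over the 16 libraries ran from 1.15 TPM to 85.2 TPM (Snord22) in box C/D members, with a median of 3.75 TPM, and from 1.27 TPM to 62.4 TPM (Snora73a) in box H/ACA members, with a median of 5.87 TPM. In labelled RNA, 186 of 312 box C/D values (59.6%) and 7 of 256 box H/ACA values (2.73%) were 0. In preexisting RNA, 258 of 312 box C/D values (82.7%) and 61 of 256 box H/ACA values (23.8%) were 0. The limit of 1 TPM bears on these shares: of the 11 box C/D genes below it that were above 0 anywhere, 8 were above 0 in preexisting RNA only and 2 in labelled RNA only. Over all 99 box C/D genes, with no limit, 655 of 792 labelled values (82.7%) and 729 of 792 preexisting values (92.0%) were 0, and over all 42 box H/ACA genes 59 of 336 (17.6%) and 132 of 336 (39.3%).

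Of the box C/D members, 7 were above 0 in all 8 labelled libraries and 2 in all 8 preexisting libraries; of the box H/ACA members, 27 and 10 were. Of the box C/D members, 16 were at 0 in all 8 preexisting libraries and Snord1b was at 0 in all 8 labelled ones. In all, 23 box C/D members owed their mean to 1 or 2 libraries, 10 of them to 1 library. Among genes below 1 TPM, 49 of 60 box C/D genes and 1 of 10 box H/ACA genes were at 0 in all 16 libraries. A limit of 1 TPM therefore kept a short member only where at least 1 library held a large value, and the 39 box C/D members are not a sample of all box C/D genes.

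Length went with the zeros, and more so across the 71 members together than within a class. The Spearman correlation of length with the number of libraries at 0 was -0.78 over the 71 members, -0.38 over the 39 box C/D and -0.16 over the 32 box H/ACA members, as a description of values that share libraries and depth. Box C/D members under 100 bases were at 0 in 178 of 248 labelled values (71.8%) and 229 of 248 preexisting values (92.3%), and the 8 longer ones in 12.5% and 45.3%. The smallest value above 0 of a short box C/D member was 14.1 TPM in labelled and 7.84 TPM in preexisting RNA, while for the 8 longer ones it was 1.02 and 0.305 TPM. A short member was thus listed either at 0 or at several TPM and more, with no low values between.

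**Figure D1:**
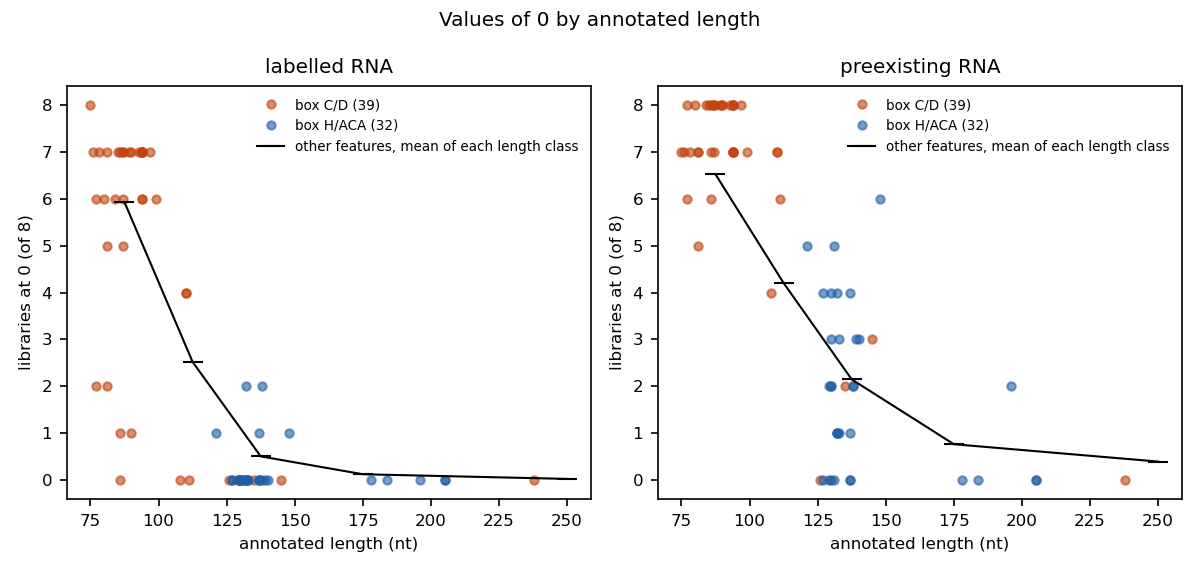
Number of the 8 labelled and 8 preexisting libraries listed at 0 (y axis) against length in bases (x axis) for each member, with the black line giving the mean of other features in the same length classes. Members of 75 to 99 bases lie high (71.8% of labelled and 92.3% of preexisting values at 0) and those of 200 bases or more lie at 0.

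Other short features of the table, which are not snoRNAs, were at 0 about as often in labelled RNA. Among 306 single-entry features of 75 to 99 bases, 74.1% of labelled and 81.5% of preexisting values were 0, against 71.8% and 92.3% for the 31 snoRNAs of that length. Among 259 features of 125 to 149 bases, 6.37% of labelled and 26.9% of preexisting values were 0, against 2.59% and 25.4% for 29 members. At 100 to 124 bases the 497 other features gave 31.5% and 52.5%, and the 5 snoRNAs 22.5% and 72.5%. Other features of these lengths thus differed in zeros in the same direction as the box classes did. What part read length, size selection or read assignment had in it was not tested.

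Summed over members, box C/D signal varied far more between libraries than box H/ACA signal. Box C/D members summed to 388 to 1746 TPM in the 8 labelled libraries (median 780.3) and to 24.9 to 158 TPM in the 8 preexisting ones (median 72.2). Box H/ACA members summed to 527 to 709.8 TPM in labelled (median 657) and 108 to 281 TPM in preexisting libraries (median 153). Over the 4 cultures the sums were 859 ± 369 TPM (SD, n = 4) against 80.7 ± 47.8 TPM for box C/D, and 645 ± 62.7 TPM against 162 ± 44.1 TPM for box H/ACA members. The labelled and preexisting libraries did not overlap in either class. For box C/D this gap is in part set by the limit of 1 TPM. It kept 16 members through labelled RNA alone, at 0 in all 8 preexisting libraries. The box H/ACA spread in labelled RNA was narrow, and the highest box C/D sum, 1746 TPM in WT culture 1 at 10 minutes, stood far above the lowest, 388 TPM in depleted culture 1 at the same time. In labelled libraries box C/D members under 100 bases summed to 145 to 1493 TPM and the longer ones to 129 to 253 TPM. The box C/D spread was thus mostly that of short members, among which both overlapping models of Snord80 were counted.

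**Figure D2:**
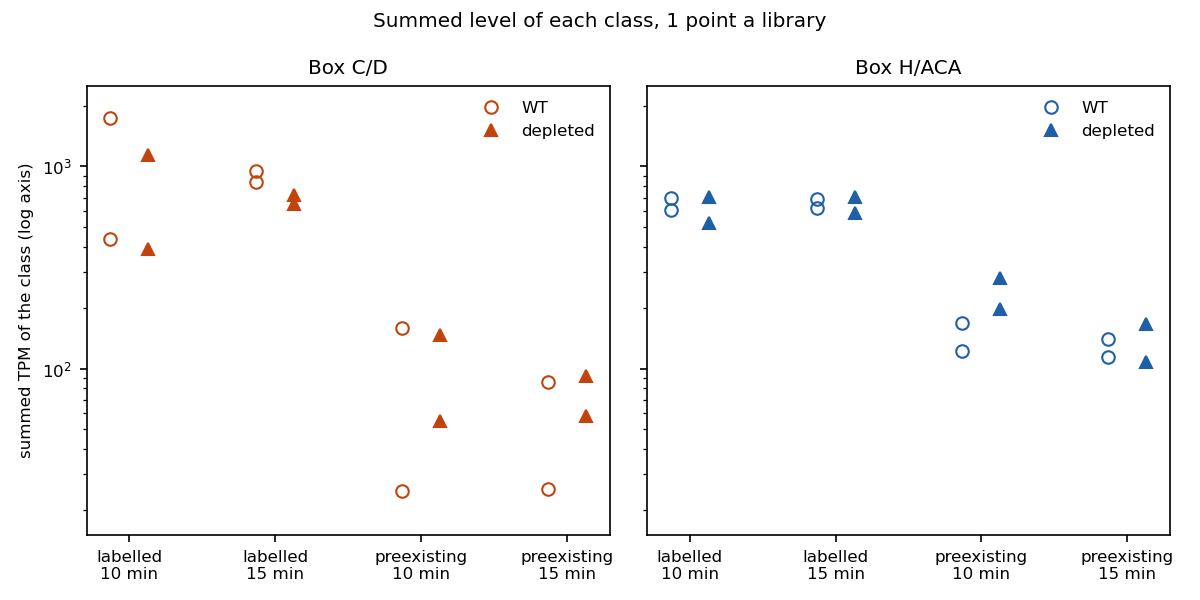
Summed TPM of the 39 box C/D and 32 box H/ACA members (log y axis) in each labelled and preexisting library, with open circles for WT and filled triangles for depleted cells. Labelled libraries (388 to 1746 TPM for box C/D, 527 to 709.8 TPM for box H/ACA) lie above all preexisting ones in both classes. The box C/D gap is in part set by the limit of 1 TPM, which 16 members passed through labelled RNA alone.

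The comparison of labelled with preexisting RNA asks which RNAs take a larger share of what was made within minutes than of what was already there. A level in TPM is a share of its own library, so a difference is one of composition, not of amount. Labelled RNA held more of 38 of the 71 snoRNAs and less of none (limma on log2(TPM + 1), adjusted p under 0.05, n = 4 cultures a fraction). These were 13 of 39 box C/D members (33.3%) and 25 of 32 box H/ACA members (78.1%), beside 36.7% of all features tested that were higher and 15.6% that were lower. The box C/D share was thus close to the background and the box H/ACA share above it. The limit of 1 TPM used both fractions, and 16 box C/D members at 0 in all 8 preexisting libraries passed it through labelled RNA alone. Their difference could only be positive, so their calls (Snord14e, Snord11, Snord116l12 and Snord83b) do not show a direction on their own. Snord1b was the reverse case, and 0 box H/ACA members were at 0 throughout preexisting RNA. The median log2 difference was 1.00 for box C/D members, 1.90 for box H/ACA members and 0.26 for all features. With values centred on the median of all features 33 members were called higher and 0 lower, and rescaled to coding genes 39 and 0, while all features split into 5162 higher and 7903 lower, or 10417 and 1684. By length, 7 of 31 box C/D members under 100 bases (22.6%, median log2 difference 0.65) and 6 of the 8 longer ones (75%, median 2.21) were called. The longer box C/D members thus stood near the box H/ACA members, and the lower box C/D median was that of the short members, mostly listed at 0.

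**Figure D3:**
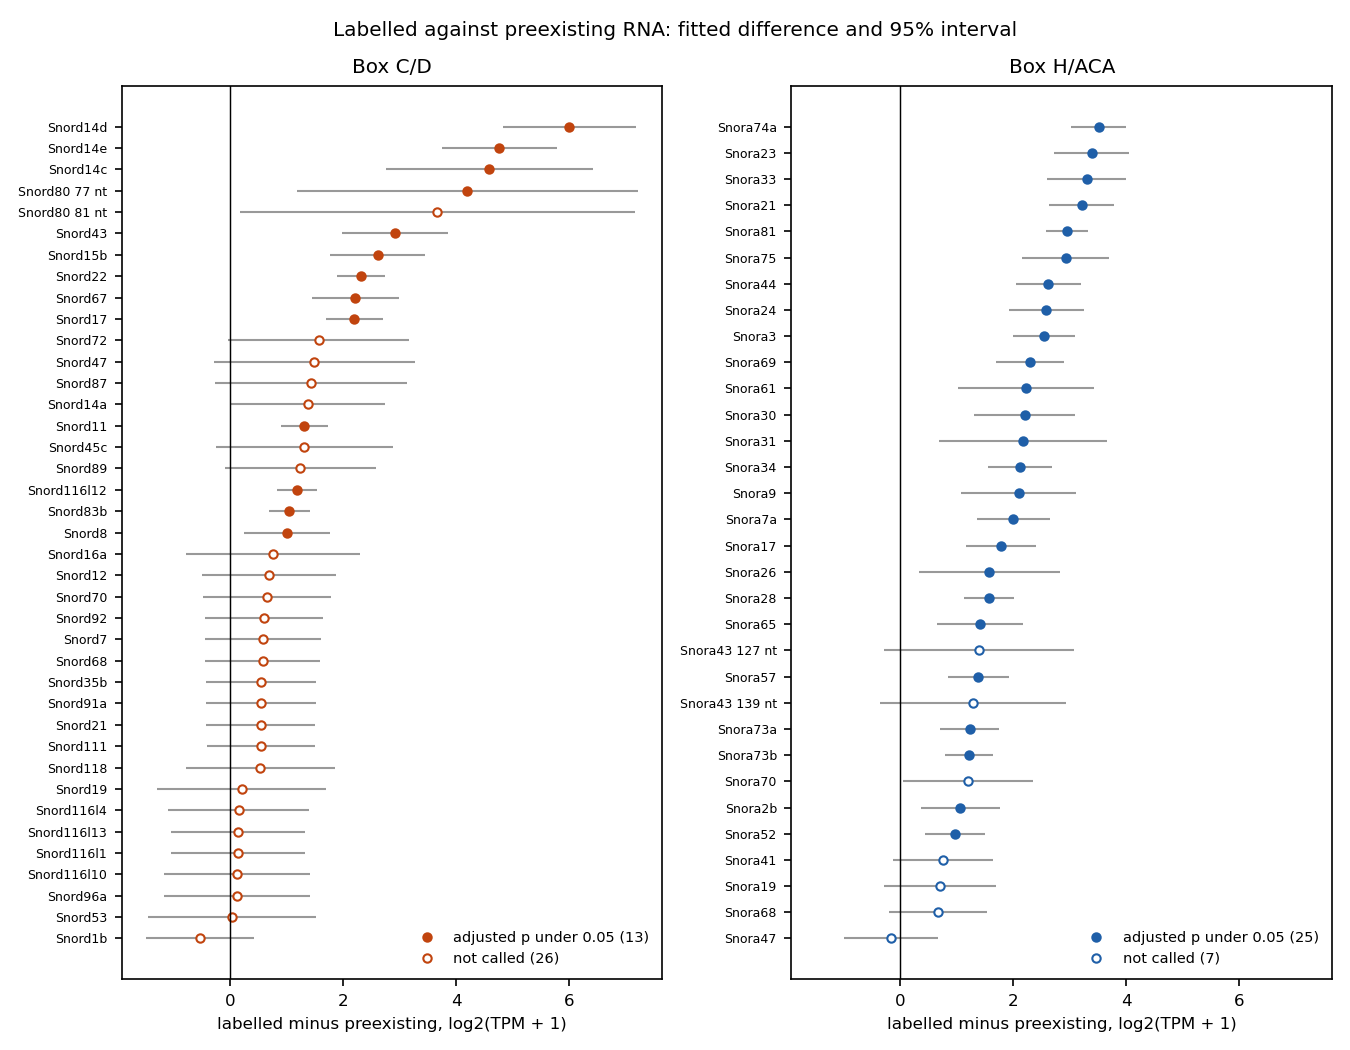
Fitted log2(TPM + 1) difference, labelled minus preexisting (x axis), of each member with its 95% interval, box C/D and box H/ACA apart, filled where called. In all, 13 of 39 box C/D and 25 of 32 box H/ACA members are filled, all to the right of 0, with called values of 1.00 to 6.0 and 0.97 to 3.51.

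All 8 labelled libraries lay above all 8 preexisting libraries for 14 members, 3 box C/D (Snord22, Snord17 and Snord14d) and 11 box H/ACA, beside 18.8% of all features. The box H/ACA share without overlap was 34.4% and the box C/D share 7.69%. Where no library was at 0, the labelled mean was 5.10 and 5.37 times the preexisting mean for Snord22 and Snord17, and 1.88 to 14.1 times for 10 box H/ACA members (median 2.95).

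Snord14 acts in the cleavages that release the small subunit RNA, and its copies had some of the largest differences. Snord14d was at 35.5, 77.0 and 309 TPM (lowest, median and highest) in the 8 labelled libraries, and among preexisting ones it was above 0 in only 1, depleted culture 1 at 10 minutes, at 20.6 TPM. The fitted log2 difference was 6.0 (SE 0.51, adjusted p = 8.08e-05), with no overlap between fractions. Snord14c was at 0, 58.2 and 190 TPM in labelled RNA and above 0 in 2 preexisting libraries, at 14.1 and 11.4 TPM (log2 difference 4.58, SE 0.79, adjusted p = 0.00178). Its only labelled zero was depleted culture 1 at 10 minutes, the library where Snord14d was lowest, and reads of these near-identical copies may be divided between them by the quantification. Snord14e, the other copy within Hspa8, was at 0, 40.8 and 58.6 TPM in labelled RNA and listed at 0 in all 8 preexisting libraries (log2 difference 4.76, SE 0.44, adjusted p = 0.000107). Snord14a, which lies in Rps13, was above 0 in only 3 labelled libraries, all WT (47.9, 19.2 and 70.4 TPM), and in 1 preexisting library (34.2 TPM), and was not called (log2 difference 1.37, adjusted p = 0.0841).

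Snord22, also needed to process small subunit RNA and hosted by the noncoding gene Snhg1, was the most abundant box C/D member. It was at 65.4, 152 and 186 TPM in labelled and 18.9, 25.8 and 40.8 TPM in preexisting libraries, or 143 ± 25.8 against 27.9 ± 6.12 TPM over cultures (SD, n = 4; log2 difference 2.32, SE 0.18, adjusted p = 6.46e-05). The lowest labelled library still exceeded the highest preexisting one. Snord118, needed for maturation of the large subunit RNA and made from its own gene rather than an intron, was at 1.02, 3.82 and 8.15 TPM in labelled and 0, 2.10 and 16.6 TPM in preexisting libraries. Its ranges overlapped, its highest value was preexisting, and it was not called (log2 difference 0.53, 95% interval -0.79 to 1.85, adjusted p = 0.465).

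Snora73a and Snora73b are box H/ACA members that also act in cleavage of the small subunit precursor, and both lie in Snhg3. Snora73a was at 70.4, 86.8 and 106 TPM in labelled and 17.7, 35.8 and 72.1 TPM in preexisting libraries, 2.24 times as high on average (log2 difference 1.23, SE 0.23, adjusted p = 0.00245). Its highest preexisting value, in depleted culture 1 at 10 minutes, reached into the labelled range. Snora73b was at 54.0, 68.0 and 77.9 TPM in labelled and 16.04, 29.1 and 45.8 TPM in preexisting libraries, 2.30 times as high, without overlap (log2 difference 1.22, SE 0.19, adjusted p = 0.000939). These 2 were the most abundant box H/ACA members and had smaller differences than most called box H/ACA members.

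Among the other box C/D members, those of 100 bases or more gave the steadiest values. Snord17, in Snx5 and the longest member, was at 11.4, 17.5 and 21.8 TPM in labelled and 1.70, 2.21 and 6.01 TPM in preexisting libraries (log2 difference 2.20, SE 0.22, adjusted p = 0.000142). Snord43, in the ribosomal protein gene Rpl3, was at 5.37, 17.2 and 40.2 TPM in labelled and 0, 0.888 and 10.0 TPM in preexisting libraries (2.91, adjusted p = 0.000626). Snord15b, in Rps3, was at 3.24, 10.2 and 17.2 TPM against 0, 0.573 and 3.77 TPM (2.61, adjusted p = 0.000605). For Snord43 and Snord15b the ranges overlapped at their ends. Snord67 (2.22, adjusted p = 0.000918) and Snord8 (1.00, adjusted p = 0.0328) were also called, while Snord89 was not (1.24, adjusted p = 0.107).

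Short box C/D members showed how calls and zeros met. The 2 models of Snord80, in Gas5, gave 0, 142 and 364 TPM (81 bases) and 0, 87.0 and 389.98 TPM (77 bases) in labelled RNA, and were above 0 in few preexisting libraries, up to 27.2 and 21.7 TPM. The shorter model was called (log2 difference 4.20, SE 1.30, adjusted p = 0.0268) and the longer was not (3.66, SE 1.51, adjusted p = 0.0746), although their bases overlap. The shorter was no longer called without WT culture 1 (adjusted p = 0.127), WT culture 2 (0.0559) or depleted culture 2 (0.257). Snord11, Snord116l12 and Snord83b were called at 1.31, 1.18 and 1.05 (adjusted p = 0.000552, 0.000484 and 0.000883) while above 0 in only 2 libraries each. Their small standard errors, 0.16 to 0.18, rest on groups whose values were all 0. Snord72, Snord47, Snord87 and Snord45c had differences of 1.31 to 1.56 that missed the threshold (adjusted p = 0.0920 to 0.140).

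The box H/ACA members with the largest differences were Snora74a, Snora23, Snora33, Snora21 and Snora81. Snora21, in Rpl23, was at 12.7, 24.5 and 41.0 TPM in labelled and 0.757, 1.56 and 3.597 TPM in preexisting libraries, 14.1 times as high (log2 difference 3.21, SE 0.25, adjusted p = 5.98e-05). Snora23, in Ipo7, was at 38.3, 63.5 and 126 TPM against 2.64, 4.22 and 11.5 TPM, 11.6 times as high (3.39, adjusted p = 8.13e-05). Snora33, in Rps12, was at 43.4, 82.9 and 100.5 TPM against 1.96, 7.67 and 19.98 TPM, 9.03 times as high (3.30, adjusted p = 0.000102). For each of these the 2 fractions were fully apart. Snora81, in the translation initiation factor gene Eif4a2, was at 47.8, 61.3 and 87.9 TPM against 4.67, 7.09 and 9.61 TPM, or 61.4 ± 9.56 against 7.11 ± 0.919 TPM over cultures (SD, n = 4; 2.96, SE 0.16, adjusted p = 3.30e-05). It had the smallest p of any member and was again without overlap. Snora74a had the largest fitted box H/ACA difference (3.51, SE 0.21, adjusted p = 4.06e-05), at 16.5, 26.6 and 41.2 TPM against 0, 1.49 and 5.62 TPM.

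Snora75, in the nucleolin gene Ncl, was at 13.9, 19.6 and 36.2 TPM in labelled and 0, 1.83 and 6.53 TPM in preexisting libraries (2.93, adjusted p = 0.000252). Snora31, in Tpt1, was at 17.3, 23.8 and 33.6 TPM against 0, 7.82 and 27.9 TPM (2.17, adjusted p = 0.0218), and Snora65, in Rpl12, at 1.65, 19.5 and 37.0 TPM against 1.89, 4.80 and 15.2 TPM (1.42, adjusted p = 0.00758). These last 2 overlapped between fractions. The 7 box H/ACA members not called were both Snora43 models, Snora70 (1.21, adjusted p = 0.0746), Snora68 (0.67, adjusted p = 0.168), Snora41, Snora19 and Snora47 (-0.17, adjusted p = 0.726). Depleted culture 1 at 10 minutes held the highest preexisting box H/ACA sum, 281 TPM, and the highest preexisting values of both Snora43 models, Snora70 and Snord118.

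Fitted within each genotype, fewer members were called. In WT cells 34 members were called higher in labelled RNA (13 box C/D and 21 box H/ACA), beside 26.1% of all features, and in depleted cells 29 (9 and 20), beside 30.1%. In all 26 members, 8 box C/D and 18 box H/ACA, were called in both genotypes, which were separate cultures, beside 23.3% of all features called higher in both. Taken culture by culture, the median log2 difference of box C/D members was 1.36 and 2.29 in WT cultures 1 and 2 and 0 in each depleted culture. That of box H/ACA members was 1.63 and 2.23 in WT against 1.32 and 2.14 in depleted cultures. In the fits over both cultures of a genotype, the box C/D medians were closer, at 1.27 in WT and 1.09 in depleted cells. The box H/ACA medians of these fits were 2.09 and 1.59. In the depleted fit 14 of 39 box C/D members had a difference of exactly 0 and 2 a negative one. In the WT fit 1 had a difference of exactly 0 and 6 a negative one. The difference between genotypes was tested only member by member, and 0 passed. The largest called WT differences were those of Snord14d (log2 difference 6.63), Snord14e (5.44), Snord14c (5.23) and Snord14a (4.03), with Snora33 (3.96) and Snora74a (3.65) first among box H/ACA members. In depleted cells the largest called were Snord14d (5.38), Snord14e (4.09) and Snord14c (3.94), with Snora21 (3.57) and Snora23 (3.55) first among box H/ACA members. Snord14a (adjusted p = 0.00811) and Snord72 (3.13, adjusted p = 0.0406) were called in WT alone, and for neither did the test of the difference between genotypes pass. Without WT culture 1, or without WT culture 2, the WT comparison called 0 of all features, and without depleted culture 2 the depleted comparison called 15 members, with Snord14c at 1.37 (adjusted p = 0.419). From the 10 minute libraries alone, the comparison over both genotypes called 22 members.

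Host genes gave a reading of the same RNA that the rule had not used. In the annotation 28 members lay wholly within an intron of a host transcript, 38 overlapped an exon of a host transcript, and 5 had no host on their strand (Snord118, Snora17, Snora57 and both Snora43 models). The 52 distinct hosts included 18 genes for ribosomal proteins or Rack1, with 19 members, and 10 noncoding genes (Snhg genes, Gas5, Zfas1 and Dancr), with 18 members. Intronic signal of the hosts was higher in labelled RNA by a median log2 difference of 2.31 (63 members with a value), and exonic signal by 0.32 (64 members), while the median over all 71 members was 1.37. Of the 63, 47 had a smaller difference than their host's introns. The intronic entries share bases with the snoRNAs, so the values are not independent, and what part unspliced host RNA has in a snoRNA's value was not tested.

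**Figure D4:**
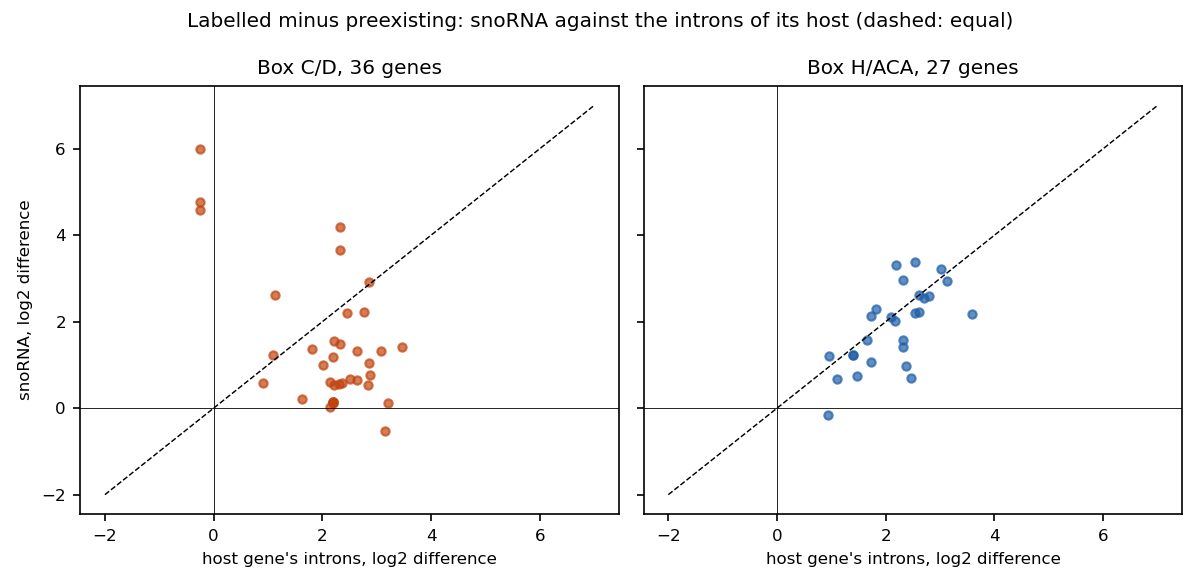
Log2 difference, labelled minus preexisting, of each member (y axis) against that of its host gene's intronic signal (x axis), for 36 box C/D and 27 box H/ACA members with a host intron value. Box H/ACA members rise with the host values (Pearson's r 0.67), and 19 of the 27 lie below the value of their host's introns. The 3 Snord14 copies of Hspa8 stand apart at 4.58 to 6.0 with a host intron value of -0.24.

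Across members, the difference of a box H/ACA snoRNA went with that of its host's introns (Pearson's r = 0.67 and Spearman's rho = 0.66 over 27 members in 24 hosts). For box C/D members it did not (r = -0.60 and rho = -0.15 over 36 members in 25 hosts). The points share libraries and some share a host, so these are descriptions. The negative box C/D value rested on Hspa8, which encodes a chaperone of the heat shock family: without its 3 members, r was -0.035 and rho 0.11 (33 members). Hspa8's exonic signal was 3054 TPM in labelled and 5226 TPM in preexisting RNA (log2 difference -0.78) and its intronic signal 516 and 604 TPM (-0.24), while its 3 Snord14 copies stood at 4.58 to 6.0. The introns of Ipo7, at a mean of 10.7 and 0.951 TPM, stood lower in both fractions than its Snora23, at 66.7 and 5.75 TPM.

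Thymidine content, which sets how many positions can take up 4sU, was a median of 30.9% (26 per transcript) in box C/D and 26.8% (38 per transcript) in box H/ACA members. Its part in the class difference was not tested.

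The comparison of depleted with WT cells asks whether loss of Dicer moved snoRNA levels. Whether WT cultures received 4-OHT is not stated in the labels, so Dicer loss and exposure to 4-OHT cannot be told apart. Few members were called, and those few were short box C/D members at 0 in most libraries. In labelled RNA 3 members were called, beside 0.128% of all features. Snord116l12 was at 27.8 and 23.6 TPM in the 15 minute libraries of both depleted cultures and at 0 in the other 14 libraries (log2 difference 2.37, adjusted p = 0.0138). Snord11, in Nop58, was at 53.0 TPM in WT culture 1 at 10 minutes, 26.0 TPM in WT culture 2 at 15 minutes and 0 elsewhere (-2.63, adjusted p = 0.0138). Snord83b, in Rpl3, was at 15.8 and 18.8 TPM in the WT 15 minute libraries and 0 elsewhere (-2.10, adjusted p = 0.0221). A value above 0 in 2 libraries, 1 from each culture of a genotype, was thus enough for a call. Each of the 3 passed the limit of 1 TPM only through the genotype in which it was called higher. The sign of each difference was therefore fixed by that limit, and these calls do not show a direction on their own. With a pseudocount of 0.1 TPM, without WT culture 2, from the 10 minute libraries alone, or with only the labelled groups in the fit, 0 members were called, and without WT culture 1 there were 9. Without depleted culture 1 or 2 the calls of Snord116l12 and Snord83b were made and that of Snord11 was not (adjusted p = 0.118 and 0.0992).

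The Snord116 copies show how thin these values are. They lie in tandem within Snhg14, in the imprinted region whose human counterpart is linked to Prader-Willi syndrome, and are called orphan because no ribosomal RNA target is known. Snord116l12 (chr7:59904755-59904848, - strand) and Snord116l1 (chr7:59894620-59894713, - strand) are shown because they differ at 3 of 94 bases (96.8% identity).
Snord116l12: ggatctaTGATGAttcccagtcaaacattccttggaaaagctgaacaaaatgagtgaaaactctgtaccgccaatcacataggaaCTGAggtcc
Snord116l1: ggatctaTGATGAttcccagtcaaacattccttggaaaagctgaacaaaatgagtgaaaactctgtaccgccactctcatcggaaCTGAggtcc
Snord116l10, Snord116l4 and Snord116l13 have the same letters as Snord116l1. These 4 identical copies were above 0 in the same 2 libraries, labelled RNA of depleted culture 1 at 15 minutes (24.9 TPM for Snord116l10, 24.3 TPM for Snord116l4, 19.6 TPM for the other two) and preexisting RNA of WT culture 1 at 15 minutes (12.3, 10.1 and 8.91 TPM). Their reads cannot be told apart, and Snord116l1 and Snord116l13 held the same value in all 16 libraries. None of the 4 was called in any comparison.

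For the other members the genotypes were not separated. The median log2 difference, depleted minus WT, in labelled RNA was -0.55 for box C/D, -0.0047 for box H/ACA members and 0.056 for all features. Snora7a, in Rpl32, was at 0.898, 2.83, 2.70 and 8.62 TPM in depleted and 13.99, 6.58, 9.12 and 11.5 TPM in WT labelled libraries (-1.45, adjusted p = 0.234), with only the depleted culture 2 library at 15 minutes inside the WT range. Snora65 was at 1.65 to 22.0 TPM in depleted and 17.8 to 37.0 TPM in WT labelled libraries (-1.12, adjusted p = 0.355). The precision was modest: the 95% interval of a member's difference had a median width of 3.33 for box C/D and 1.92 for box H/ACA members on the log2 scale.

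In preexisting RNA 0 members were called by limma (6 at an unadjusted p under 0.05), beside 0.646% of all features. Snora28, in Eif5, was at 5.25, 5.04, 11.8 and 6.403 TPM in depleted and 6.76, 0.738, 1.29 and 3.22 TPM in WT libraries (log2 difference 1.20, adjusted p = 0.105), and Snora52, in Rplp2, had -0.92 (adjusted p = 0.202). Among box C/D members the smallest p-values belonged to Snord67 (1.14, adjusted p = 0.265) and Snord1b (-1.07, adjusted p = 0.386). The test of whether the fraction difference itself depended on genotype called 0 members by limma (7 unadjusted), beside 0.00458% of all features. Snord11 (-2.63) and Snord116l12 (2.37) had the smallest p of box C/D (adjusted p = 0.185 for both), and Snora28 (-0.96) and Snora52 (1.24) of box H/ACA members (adjusted p = 1.00 for both). With only the 15 minute libraries 3 members were called in that test, and 2 with a pseudocount of 10 TPM or with no filter on low values.

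Zeros among box C/D members differed by genotype and by time in labelled RNA, and these counts are given as descriptions. Depleted libraries held 30 and 27 zeros of 39 at 10 minutes and 22 and 23 at 15 minutes, and WT libraries 22 and 26 at 10 minutes and 19 and 17 at 15 minutes. At each time both WT cultures thus had fewer zeros than both depleted ones, and all 4 cultures had fewer at 15 than at 10 minutes. Among the 306 other features of 75 to 99 bases, 64.7 to 77.1% were at 0 in depleted and 72.5 to 85.6% in WT labelled libraries, with more zeros in both WT than in both depleted cultures at 10 minutes and overlapping groups at 15 minutes, and all 4 cultures again had fewer zeros at 15 minutes. In preexisting RNA the box C/D members held 129 zeros of 156 values in each genotype, with 126 at 10 and 132 at 15 minutes. In 3 preexisting libraries, both of WT culture 2 and that of depleted culture 2 at 10 minutes, all 31 short box C/D members were at 0. Box H/ACA members held 4 zeros of 128 labelled values in WT and 3 in depleted cells.

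Box C/D members of labelled libraries summed to 992 ± 504 TPM in the WT and 726 ± 289.9 TPM in the depleted cultures (SD, n = 2), a difference within the spread. The box H/ACA sums were 656 ± 5.63 and 634 ± 106 TPM. In preexisting RNA, box C/D sums were 73.5 ± 68.4 TPM in WT and 87.9 ± 44.2 TPM in depleted cultures, and box H/ACA sums 136 ± 25.3 and 188 ± 49.97 TPM. None of the 4 pairs was separated beyond its spread.

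Labelling for 15 rather than 10 minutes moved few members. In labelled RNA 2 members were called, beside 0.0642% of all features: Snord116l12 (log2 difference 2.37, adjusted p = 3.61e-05) and Snord83b (2.10, adjusted p = 0.000111), each above 0 in exactly the 2 libraries at 15 minutes named above. Both passed the limit of 1 TPM through 15 minute libraries alone, so their difference could only be positive. Neither was called with a pseudocount of 0.1 TPM, and the count was 7 without WT culture 2 and 10 without WT culture 1. Among box H/ACA members the smallest p-values were those of Snora57 (0.98) and Snora68 (0.99), each with an adjusted p of 1.00. In preexisting RNA 0 members were called by limma (3 unadjusted), beside 0% of all features. Snora81 (-0.58), Snora33 (-1.09) and Snora73b (-0.50) had the smallest p there, with an adjusted p of 0.562, 0.723 and 0.747. The 2 times came from the same 4 cultures.

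The protein genes of the snoRNA pathway had no direction that held under every scaling. Of 22 genes for snoRNA-binding core proteins and assembly factors, 1 was higher and 6 were lower in labelled RNA (beside 36.7% and 15.6% of all features), with a median log2 difference of -0.094, against 0 and 13 with values centred on the median of all features and 5 and 2 with values rescaled to coding genes. The C/D core protein gene Nop56 (-0.34, adjusted p = 0.0249) and the pseudouridine synthase gene Dkc1 (-0.34, adjusted p = 0.0402) were lower as scaled here, and so were the assembly ATPase genes Ruvbl1 (-0.94, adjusted p = 0.00140) and Ruvbl2 (-0.65, adjusted p = 0.00794), Nop53 (-0.90, adjusted p = 0.00375) and the nucleolar chaperone gene Nolc1 (-0.57, adjusted p = 0.00829). Shq1, which chaperones dyskerin, was higher (0.88, adjusted p = 0.00849). Between genotypes 0 of the 22 were called by limma in either fraction (2 unadjusted in labelled and 6 in preexisting RNA). Of the 7 calls between fractions, the count was 4 without WT culture 2, 3 without WT culture 1 and 2 without depleted culture 1. Mean levels ran from 2.84 TPM to 3430 TPM for Nop56, with Dkc1 at 545 TPM and the methyltransferase gene Fbl at 27.1 TPM.

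Other short nuclear RNAs that passed the limit split by kind. Of 18 genes, 10 passed the limit of 1 TPM, and 7 were higher and 3 lower in labelled RNA, beside 36.7% and 15.6% of all features (4 and 3 with values centred, 7 and 3 rescaled to coding genes). The 4 Rnu3b genes, near-identical copies of a box C/D RNA needed for the early cleavages of the ribosomal RNA precursor, were higher in labelled RNA by 0.96 to 1.19 on the log2 scale, and so were the Cajal body RNAs Scarna3a (1.55), Scarna3b (2.03) and Scarna8 (2.37, adjusted p = 0.00178). Scarna3b was at 0 in all 8 preexisting libraries and passed the limit through labelled RNA alone. Its difference could only be positive, so its call does not show a direction on its own. The 3 genes read by RNA polymerase III were lower: Rn7sk (-3.48, adjusted p = 2.91e-05), Rmrp (-2.77) and Rpph1 (-1.63). Rn7sk was at 2.53 to 8.42 TPM in labelled and 43.5 to 88.5 TPM in preexisting libraries, with no overlap. Reads of the Rnu3b copies cannot be assigned to 1 of them with certainty. Without WT culture 2 only 4 of the 10 calls were made, 1 higher and 3 lower. Genes below the limit, left out of these counts, did not all follow the split. Scarna2 and Terc among them were higher on average in preexisting RNA.

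The small RNA libraries hold entries for microRNA genes that overlap 4 snoRNA genes on the same strand. They cover 6 mature microRNAs: miR-1291 lies in Snora34, miR-3084-5p and miR-3084-3p in Snora19, and the genes of miR-664 and miR-5121 overlap Snora36b and Snord33, which were below 1 TPM and are not among the 71. Mature sequences below have the seed, bases 2 to 8, in capitals; miR-1291 forms bases 1 to 26 of Snora34 (chr15:98519716-98519853, - strand), shown with those bases in capitals.
miR-1291: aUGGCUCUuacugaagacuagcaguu
Snora34: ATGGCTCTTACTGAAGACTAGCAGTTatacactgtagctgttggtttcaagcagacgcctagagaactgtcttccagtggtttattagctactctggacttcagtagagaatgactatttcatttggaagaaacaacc
miR-664-5p: cUGGCUGGggaaaaugacugg
miR-5121: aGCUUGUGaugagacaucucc
No 2 of these seeds are identical, though those of miR-1291 and miR-664-5p both begin with UGGCU. Snora34, in Kansl2, was itself called higher in labelled RNA (2.12, adjusted p = 0.000277).

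These microRNAs gave few reads, among 11134202 to 16216368 reads a library. miR-1291 had 2 to 16 reads in each of the 15 libraries, with 18, 16, 21, 16 and 11 reads over the 3 libraries of days 0, 4, 8, 10 and 12, and was too low to be tested. Both arms of miR-3084 were at 0 in all libraries. miR-664-3p had 11 and 14 reads at days 0 and 4 and 0 at days 8, 10 and 12. miR-664-5p had 155, 115, 20, 21 and 11 reads over the 3 libraries of those 5 days, or 4.48 ± 0.748, 2.59 ± 1.02, 0.487 ± 0.297, 0.527 ± 0.246 and 0.269 ± 0.238 RPM, with every read of the library as the base (SD, n = 3). miR-5121 had 156, 230, 356, 270 and 151 reads, or 4.50 ± 0.838, 5.30 ± 0.631, 8.70 ± 2.98, 6.69 ± 1.40 and 3.57 ± 0.927 RPM. On each later day all 3 libraries of miR-664-5p lay below every day 0 library in RPM, while miR-5121 overlapped its day 0 range at days 4 and 12.

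The sign of their change depended on what they were compared with. With all reads as library size, miR-664-5p fell by 3.15 at day 8 (edgeR, adjusted p = 1.00e-08), by 3.09 at day 10 and by 4.05 at day 12 on the log2 scale, and miR-5121 changed by 0.95 at day 8 (adjusted p = 0.00568) and by 0.23, 0.57 and -0.34 at days 4, 10 and 12, which did not pass. Under that scaling the median of all microRNAs tested stood at -0.93, -5.09, -6.69 and -7.22 on days 4, 8, 10 and 12. With TMM factors, which compare microRNAs with one another, miR-5121 was called higher on all 4 days (0.98, 5.88, 7.10 and 6.70) and miR-664-5p from day 8 (1.75, 3.44 and 2.92), beside 65.1%, 66.3%, 72.4% and 69.3% of the microRNAs called in either direction. Relative to other microRNAs both thus rose, and relative to all reads miR-664-5p fell at days 8, 10 and 12. miR-1291, with 18 reads at day 0 and 11 at day 12, could not be placed on either side at this depth.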

How the data were processed

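The 4sU experiment covered 16 libraries (WT or Dicer depleted, labelled or preexisting RNA, 10 or 15 minutes, 2 cultures), and small RNA 15 libraries (5 days, 3 libraries each). Per the labels' protocols, STAR 2.5.0 served to discard ribosomal reads from the 4sU libraries, and the remainder was mapped to intronic as well as exonic sequence and quantified by RSEM on mm10; the version of the annotation is not given in the sources used here. The 4sU values that the authors deposited are a signal of which 10 units make 1 TPM, since each column sums to 9999997 to 10000003, and were divided by 10. The deposited small RNA values are raw counts. Entries for mature microRNAs held 51984 to 2366940 reads a library, of 11134202 to 16216368 over all entries, and the latter sum is what is called all reads here. Per the labels' protocols, cutadapt 1.8, Bowtie2 and HTSeq with miRBase 21 were used.

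Of 121429 exonic entries, 110366 matched GENCODE M21 and were summed per gene; unmatched ones held 5.571 to 7.595% of the signal and were tested but not named. Features of at least 1 TPM on average (21821) were fitted with limma 3.58.1 (trend) on log2(TPM + 1), a scale that understates changes of low genes. A culture's libraries at 10 and 15 minutes were averaged on the log2 scale, in 1 model of 4 groups, and the times were compared in a model of all 16 libraries. Neither model paired the fractions of a culture, and the second did not pair its times. The 8 comparisons were two-sided, each adjusted by Benjamini-Hochberg over all 21821 features, with a threshold of 0.05. microRNAs (261 after filterByExpr) went through edgeR 4.0.16 with its quasi-likelihood test and TMM factors. DESeq2 1.42.0 was an alternative. The fits were tested on simulated data. R 4.3.3, Python 3.11.15 and matplotlib 3.10.9 were used.

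Members and gene lists were chosen with earlier results of these data known. Members named were the 10 most abundant of each class, up to 6 of the largest called changes in each direction and class per comparison (or the 2 of smallest p where none was called), those with most zeros, those at the 1 TPM limit, and the pathway lists. Members also named for a shared host or sequence, or for missing the threshold, were chosen after their values were seen. Replicate numbers name cultures in the labels; deviations of same-numbered cultures correlated at 0.162 and 0.219 between genotypes (labelled, preexisting) and at 0.397 and 0.0512 between fractions (WT, depleted). Alternatives were other pseudocounts, filters, scalings, times, samples in the fit, left-out cultures and a replicate block. The block was the culture for fractions and times, and the replicate number otherwise.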

Additional observations from a re-analysis of the deposited data

How the results depend on the processing

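Depth of the 4sU libraries is unknown, short members are listed at 0 or at several TPM, and each group has 2 cultures. Among 709 alternative values of 57 named member comparisons in 4sU RNA, 634 kept their direction and side of the threshold, 72 no longer passed, 3 passed in addition and 0 reversed. The fraction comparison called 38 members, 33 with values centred on the median of all features and 39 with values rescaled to coding genes; over all features the split was 8010 higher and 3412 lower, 5162 and 7903 when centred, and 10417 and 1684 when rescaled. The median of all features moved from 0.26 to -0.24 when centred and to 0.53 when rescaled. From 10 minute libraries alone the fraction comparison called 22 members (20 in WT, 13 in depleted cells) and the genotype comparison of labelled RNA 0. A pseudocount of 0.1 TPM gave 0 members for genotype and 0 for time in labelled RNA, and only the groups compared gave 0 for genotype. Restricting to members of 100 bases or more, an alternative chosen after seeing the data, also gave 0 for both. That outcome was certain, since every member called in these comparisons was under 100 bases. The test of genotype against fraction called 2 with a pseudocount of 10 TPM, 2 with no filter and 3 from 15 minute libraries alone. Leaving out 1 culture at a time gave 34 to 40 members for the fraction comparison, 0 to 34 in WT (0 without either WT culture) and 15 to 24 in depleted cells, 0 to 9 for genotype and 2 to 10 for time in labelled RNA, 0 in every case for genotype in preexisting RNA and for genotype against fraction, and 0 to 2 for time in preexisting RNA. With members of at least 5 TPM, the median box C/D difference was 2.61, zeros were 26.9% (labelled box C/D), 66.3% (preexisting box C/D) and 13.8% (preexisting box H/ACA), and the labelled box H/ACA sum was 575 TPM. With a culture left out, the class medians were 0.80 to 0.91 (box C/D) and 1.78 to 1.98 (box H/ACA), zeros 57.3 to 62.0%, 79.1 to 86.3%, 1.56 to 3.65% and 20.3 to 27.6% (labelled and preexisting box C/D, then box H/ACA), and the same sums 696 to 972, 67.0 to 99.3, 624 to 674 and 141 to 176 TPM. The replicate block gave 39 members for the fraction comparison, 36 in WT and 32 in depleted cells, 3 and 0 for genotype, 0 for genotype against fraction and 2 and 0 for time; it changed no other call. For microRNAs in snoRNA genes, all reads as library size called 0 at day 4 and 1 at days 10 and 12, and leaving out a replicate gave 1 to 1 at day 4 and 1 to 3 at days 8, 10 and 12. miR-664-5p changed sign at day 4 with DESeq2 (0.098), with no filter (0.16) and without replicate 3 (0.19), and with all reads at days 8, 10 and 12 (-3.15, -3.09 and -4.05); miR-5121 did so with all reads at day 12 (-0.34). Beyond fewer samples or members, the causes were not tested.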
